A study of Mus musculus with 6 samples.

Results

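Drug-metabolising enzymes modify foreign compounds and steroids so that they can be excreted. The enzymes described here are the cytochromes P450 of families Cyp1, Cyp2 and Cyp3, the UDP-glucuronosyltransferases (Ugt), the glutathione S-transferases of the alpha, mu, pi and theta groups (Gst), the sulfotransferases (Sult) and the carboxylesterases Ces1 and Ces2. They were chosen by the beginning of the gene symbol, which gave 108 of the 17684 genes in the table: 44 Cyp, 19 Ugt, 18 Gst, 12 Sult and 15 Ces genes.

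Kidney RNA of 3 Db and 3 Db + Ato10 mice was sequenced, with 1 library per mouse. All 6 were db/db mice, labelled as strain C57 BLKS/L (the study's text gives C57BLKS/J), which lack a working leptin receptor and become obese and diabetic, and all were 50 weeks old. The Db + Ato10 mice had received atorvastatin, an inhibitor of cholesterol synthesis, at 10 mg/kg for 40 weeks, and the Db mice had received normal saline over the same time. By the methods of the study the mice were male. By its own account both groups lost mice before this age, Db + Ato10 more than Db, so all 6 kidneys come from survivors.

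P450 enzymes and carboxylesterases oxidise or cleave a compound, and the other classes attach glucuronic acid, glutathione or sulfate to it. The liver has most of this capacity, and in the kidney the enzymes are concentrated in the proximal tubule, where transporters take up drugs from the blood and pass them into the urine. Several of these genes differ between male and female mouse kidneys.

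The deposited read counts summed to 13134930, 11381678 and 12426051 in Db replicates 1, 2 and 3. In the Db + Ato10 kidneys the totals were 14578023, 14667909 and 13133241, in the order of their replicate numbers. Levels are given as CPM (counts scaled to a common library size, with TMM factors), and 3 counts, the floor used here, correspond to 0.198 to 0.260 CPM. This floor covers counting error only. Fold changes are log2 of Db + Ato10 over Db with the standard error (SE) of the fit. Levels of different genes are compared only as deposited TPM, which takes length into account.

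A pair of libraries stood apart before any enzyme was compared. Db replicate 1 had 2 counts over 4 Y-linked genes, where Db replicates 2 and 3 had 1520 and 1419 and the Db + Ato10 libraries 2049, 2116 and 1508. That library therefore goes against the male sex given in the methods. Medians, counts of calls and values of some enzymes are also given without it. Db + Ato10 replicate 1 had the lowest summed level of 16 proximal tubule markers. Their summed TPM was 20259, 14085 and 17644 in Db replicates 1 to 3 and 1709, 9907 and 17120 in Db + Ato10 replicates 1 to 3. Pck1, the most abundant of these markers, had 163 TPM in Db + Ato10 replicate 1 and between 2638 and 5025 TPM in the others. None of the 16 markers was at 0 in all libraries, so the labelled tissue had its defining markers. Leukocyte markers (12 genes, 9 tested and all 9 positive, S100a9 the most abundant) summed to 94.0, 189 and 132 TPM in Db and to 46184, 1544 and 205 TPM in Db + Ato10. In bulk tissue, fewer cells of a type and less RNA per cell cannot be told apart, and the part of either marker group in the enzyme levels was not tested.

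Of the 108 enzymes, 65 had at least 10 counts in at least 3 libraries and were tested, and 43 were not. Among those 43, 25 had no more than 3 counts in any library. Of the tested enzymes, 1 (Cyp2c69) reached 10 counts in the Db libraries alone, so it had to differ in that direction. In edgeR's quasi-likelihood test 0 of 65 were called at an adjusted p under 0.05 and a fold change over 1.5, against 0% of the 13679 genes tested, and limma-voom called 0 genes as well. At an unadjusted p under 0.05, 4 enzymes were higher and 1 was lower in Db + Ato10 (Cyp2c69, whose direction the count minimum fixed), beside 11.2% of all tested genes higher and 5.71% lower. DESeq2 called 1 of 65 enzymes (Ugt2b37, higher) and 6.48% of all genes. The groups did not overlap for 5 enzymes that were higher and 6 that were lower, Cyp2c69 among them, beside 12% and 11.3% of all genes. On deposited TPM these counts were 3 and 8 (8.19% and 16.7% of all genes): Cyp2s1 and Ces2e overlapped, while Gstt1 and Ces1e, both lower, did not.

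The fitted log2 fold change was above 0 for 23 enzymes and below 0 for 42, with a median of -0.20 beside -0.01 over all tested genes. This median depended on single libraries. The median log2 difference from the Db mean was -0.89 in Db + Ato10 replicate 1, -0.005 in replicate 2 and 0.12 in replicate 3. Leaving out the first treated kidney gave a median log2 fold change of 0.04, leaving out the third gave -0.38, and leaving out Db replicate 3 gave -0.03. Leaving out Db replicate 1 gave -0.28, and by class -0.43 for Cyp, -0.24 for Ugt, -0.23 for Gst, -0.29 for Sult and -0.11 for Ces. By class, without Db + Ato10 replicate 1, the median turned positive for Ugt (0.12), Gst (0.10) and Ces (0.19). Without Db replicate 3 it was also positive for Ugt (0.13) and Ces (0.09), while with any 1 library left out the medians lay between -0.84 and -0.13 for Cyp, -0.41 and 0.13 for Ugt, -0.27 and 0.10 for Gst, -0.38 and -0.12 for Sult, and -0.52 and 0.19 for Ces. In Db + Ato10 replicate 1, 43 of 65 enzymes lay below every Db library, against 25 in replicate 2 and 9 in replicate 3. Of all 13679 tested genes, 5591, 4680 and 3281 lay below every Db library in the same order. The Db mean was more than 4 times the level of Db + Ato10 replicate 1 for 17 enzymes, of replicate 2 for 5 and of replicate 3 for 0, beside 391, 185 and 33 of all 13679 genes.

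**Figure D1:**
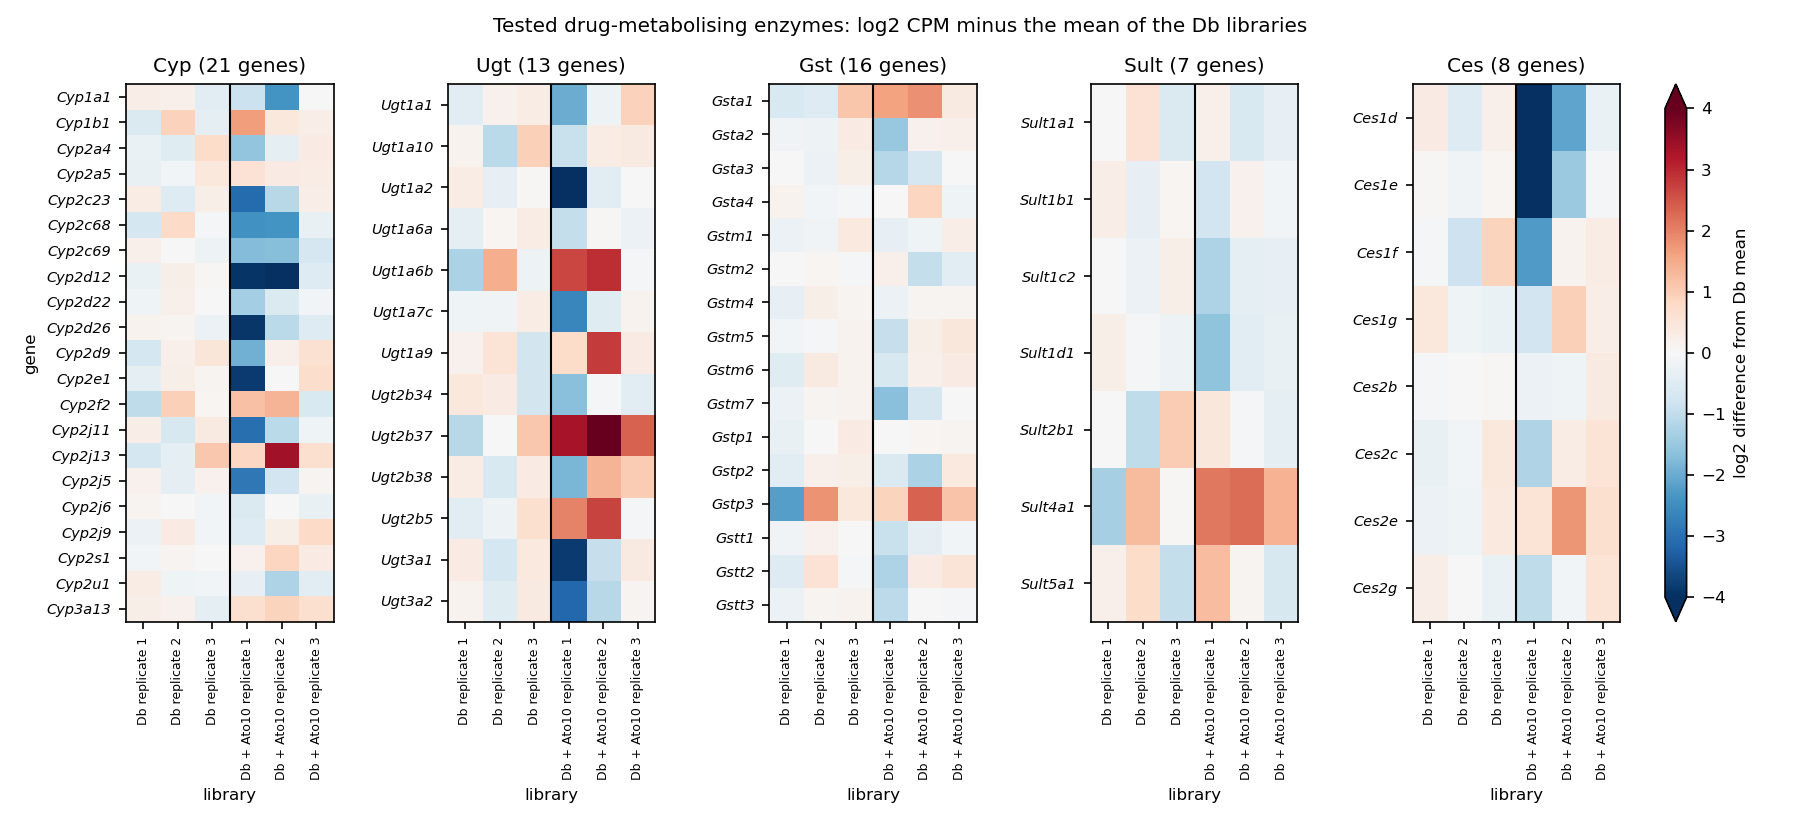
Each row is 1 of the 65 tested enzymes and each column a library, and the colour gives log2 CPM minus the mean of the 3 Db libraries. The column of Db + Ato10 replicate 1 is mostly blue (43 enzymes below every Db library), and Ugt2b37 is red in all 3 Db + Ato10 columns.

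The cytochromes P450 are haem enzymes that insert oxygen into drugs, steroids and fatty acids. Of the 44 genes, 21 were tested, with 7 log2 fold changes above 0 and 14 below, and a median of -0.44. Their summed TPM was 2709, 2786 and 3164 in Db replicates 1 to 3 and 565, 2071 and 3039 in Db + Ato10 replicates 1 to 3. The first of the treated kidneys had the lowest sum, and the third lay within the Db range. Per library the median log2 difference from the Db mean was -1.37, -0.35 and 0.11 in Db + Ato10 replicates 1, 2 and 3.

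By mean TPM the most abundant P450 was Cyp2e1, the ethanol- and acetone-inducible enzyme (613 TPM over all libraries), followed by Cyp2j5 (459) and Cyp2d26 (383). Cyp2e1 measured 486, 728 and 677 CPM in Db and 43.9, 616 and 1002 CPM in Db + Ato10 (log2 fold change -0.19, SE 0.91, edgeR adjusted p = 0.922). A single treated kidney was low, another was above every Db kidney, and the sign turned to 0.37 without Db + Ato10 replicate 1. Cyp2j5, which makes epoxides of arachidonic acid in the renal tubule, measured 1047, 716 and 1039 CPM in Db and 126, 538 and 991 CPM in Db + Ato10 (-0.76, SE 0.66, edgeR adjusted p = 0.544). Both Db + Ato10 replicates 1 and 2 lay below the Db range, and replicate 3 lay inside it.

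The Cyp2d genes belong to the family that oxidises many amine drugs, and all 4 that were tested had negative log2 fold changes. That of Cyp2d9, outside the naming rule, was small (-0.12, SE 0.62, edgeR adjusted p = 0.930). With 1 library left out it ran from -0.59 to 0.34. Cyp2d26 measured 532, 518 and 414 CPM in Db and 32.3, 231 and 342 CPM in Db + Ato10 (-1.27, SE 0.73, edgeR adjusted p = 0.395). The groups did not overlap, although the third treated kidney was close to the lowest Db kidney. Cyp2d12 measured 120, 172 and 150 CPM in Db and 9.48, 7.77 and 102 CPM in Db + Ato10 (-1.89, SE 0.99, edgeR adjusted p = 0.360). Db + Ato10 replicates 1 and 2 were both far below all Db kidneys. Without Db + Ato10 replicate 3 the log2 fold change was -4.09 and Cyp2d12 passed both criteria (edgeR adjusted p = 0.0233). Over the 6 fits with 1 library left out its adjusted p ran from 0.0233 to 0.607. Cyp2d12 had values that were not whole, so reads may have been split with a near-identical copy.

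The Cyp2c genes, which oxidise fatty acids and many acidic drugs, had 3 tested members of 10, all with negative log2 fold changes. Cyp2c23, the epoxygenase of the rodent kidney, measured 122, 68.4 and 116 CPM in Db and 11.5, 46.1 and 118 CPM in Db + Ato10 (-0.81, SE 0.74, edgeR adjusted p = 0.562). It is named although it falls outside the naming rule, because it was the most abundant Cyp2c. Cyp2c69 measured 1.43, 1.21 and 1.05 CPM in Db and 0.263, 0.270 and 0.709 CPM in Db + Ato10 (-1.58, SE 0.50, edgeR adjusted p = 0.239). Its groups did not overlap, but the counts were 18, 14 and 13 against 4, 4 and 9. Its deposited values were not all whole, so reads may have been split with related genes. Without Db + Ato10 replicate 3 its edgeR adjusted p was 0.0458, and without either of the other treated libraries it was 0.396 and 0.439. Leaving out any Db library put it under the count minimum. Cyp2c68, also with values that were not whole, had 7, 21 and 12 counts in Db and 1, 1 and 10 in Db + Ato10 (-1.89, SE 0.95, edgeR adjusted p = 0.350), with overlapping groups.

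The log2 fold change was above 0 for 7 P450 genes, none of them called with all 6 libraries. The most abundant of these by mean TPM was Cyp2a5 (150 TPM), with overlapping groups (0.36, SE 0.22, edgeR adjusted p = 0.422). It falls outside the naming rule and is given for its level. Cyp2a5 had values that were not whole, so reads may have been split with a related gene. Values of Cyp2a4 were not whole either, and its log2 fold change was -0.44 (SE 0.52, edgeR adjusted p = 0.659). Cyp2j13, more abundant in male than in female mouse kidney, measured 6.68, 8.24 and 23.3 CPM in Db and 19.4, 114 and 17.0 CPM in Db + Ato10 (1.98, SE 0.89, edgeR adjusted p = 0.317). Its high mean came from Db + Ato10 replicate 2 and the groups overlapped. Without Db replicate 1 its log2 fold change was 1.67 (edgeR adjusted p = 0.608). Cyp2s1 measured 25.1, 29.2 and 27.5 CPM in Db and 30.4, 49.6 and 34.3 CPM in Db + Ato10 (0.48, SE 0.21, edgeR adjusted p = 0.309), with every treated kidney above every Db kidney by a small margin on CPM, while on TPM the groups overlapped. Cyp3a13 measured 1.19, 1.13 and 0.727 CPM in Db and 1.65, 1.96 and 1.65 CPM in Db + Ato10 (0.78, SE 0.33, edgeR adjusted p = 0.301). It was the tested Cyp3a gene, from the family that oxidises atorvastatin itself in the liver, and its groups did not overlap at 9 to 29 counts. Cyp3a11, the main Cyp3a of mouse liver, had at most 0.162 CPM in any library, below the floor.

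The Cyp1 genes are classical targets of the aryl hydrocarbon receptor. Cyp1a1 measured 2.94, 2.77 and 1.70 CPM in Db and 1.25, 0.338 and 2.44 CPM in Db + Ato10 (-0.89, SE 0.65, edgeR adjusted p = 0.481). Cyp1b1, also expressed by mesenchymal cells, measured 22.1, 61.7 and 25.8 CPM in Db and 106, 43.8 and 39.6 CPM in Db + Ato10 (0.79, SE 0.53, edgeR adjusted p = 0.452). The groups of both genes overlapped, and their fitted signs were opposite. With 1 library left out the log2 fold changes ran from -1.61 to -0.41 for Cyp1a1 and from 0.20 to 1.40 for Cyp1b1. The remaining non-overlapping P450 was Cyp2u1, chosen for naming after its values were seen, with 4.37, 3.12 and 3.31 CPM in Db and 2.83, 1.42 and 2.60 CPM in Db + Ato10 (-0.66, SE 0.35, edgeR adjusted p = 0.368).

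The UDP-glucuronosyltransferases attach glucuronic acid to drugs, bilirubin and steroids. Of 19 genes 13 were tested, with 5 log2 fold changes above 0 and 8 below, and a median of -0.20. Their summed TPM was 2518, 1769 and 2711 in Db and 391, 1931 and 2412 in Db + Ato10. Db + Ato10 replicate 1 alone lay outside the Db range. The median log2 difference from the Db mean was -1.66 in that kidney, 0.06 in the second and 0.15 in the third treated kidney.

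The largest log2 fold change of any tested enzyme was that of Ugt2b37. It measured 1.43, 3.29 and 7.11 CPM in Db replicates 1 to 3 and 33.0, 99.1 and 17.4 CPM in Db + Ato10 replicates 1 to 3 (3.66, SE 0.84). All treated kidneys were above all Db kidneys, and the second was the highest. The edgeR adjusted p was 0.239 and that of DESeq2 0.000239, and over all alternatives with 6 libraries it ran from 0.000239 to 0.373. DESeq2 without Db replicate 1 called Ugt2b37 alone among the 62 enzymes with an adjusted p, beside 1.46% of all genes. With edgeR, leaving out 1 library gave log2 fold changes from 2.70 to 4.40, always higher, and an adjusted p under the threshold (0.0353) only without Db + Ato10 replicate 3. All of its deposited counts were whole.

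Ugt2b5 measured 0.556, 0.693 and 1.37 CPM in Db and 3.69, 6.14 and 0.788 CPM in Db + Ato10 (2.01, SE 0.77, edgeR adjusted p = 0.272). Db + Ato10 replicates 1 and 2 were high, and replicate 3 lay inside the Db range. Without replicate 3 the edgeR adjusted p was 0.0399, and over all fits with 1 library left out it ran from 0.0399 to 0.595. Ugt2b38 measured 149, 79.5 and 152 CPM in Db and 33.9, 314 and 244 CPM in Db + Ato10 (0.64, SE 0.73, edgeR adjusted p = 0.642), so the treated kidneys lay on both sides of the Db range. Ugt2b34 measured 60.7, 56.2 and 26.8 CPM in Db and 14.2, 43.1 and 33.7 CPM in Db + Ato10 (-0.66, SE 0.47, edgeR adjusted p = 0.469), with overlapping groups. Both Ugt2b5 and Ugt2b38 had values that were not whole, so reads may have been split. Ugt2b38 is outside the naming rule and is given for comparison.

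The 4 tested Ugt2b genes lie on chromosome 5, and the sequence before the starts of 3 of them is shown to compare Ugt2b37 with its relatives. The 250 bases before the RefSeq start are printed 5′ to 3′ on the gene's strand, the minus strand of GRCm38.p6. The spans are chr5:87254789-87255038 for Ugt2b37, chr5:87140341-87140590 for Ugt2b5 and chr5:87424204-87424453 for Ugt2b38. Capitals mark the longest run shared with Ugt2b37, and in Ugt2b37 the run shared with Ugt2b5.
Ugt2b37: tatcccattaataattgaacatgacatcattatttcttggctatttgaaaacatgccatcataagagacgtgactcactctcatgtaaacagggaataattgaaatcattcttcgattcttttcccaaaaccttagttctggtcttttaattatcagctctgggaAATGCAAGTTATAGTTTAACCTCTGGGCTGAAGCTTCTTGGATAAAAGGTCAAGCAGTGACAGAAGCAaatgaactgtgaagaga
Ugt2b5: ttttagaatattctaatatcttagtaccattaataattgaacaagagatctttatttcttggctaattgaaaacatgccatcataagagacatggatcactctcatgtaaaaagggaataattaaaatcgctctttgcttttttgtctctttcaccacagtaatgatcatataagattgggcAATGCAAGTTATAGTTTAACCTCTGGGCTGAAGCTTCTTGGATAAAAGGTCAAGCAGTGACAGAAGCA
Ugt2b38: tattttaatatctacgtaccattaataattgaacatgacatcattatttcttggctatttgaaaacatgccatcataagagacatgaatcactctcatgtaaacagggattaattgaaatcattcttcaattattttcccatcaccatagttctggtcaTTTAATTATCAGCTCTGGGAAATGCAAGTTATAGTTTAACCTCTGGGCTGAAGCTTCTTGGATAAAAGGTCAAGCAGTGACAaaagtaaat
Ugt2b37 and Ugt2b5 share an unbroken run of 68 bases that ends 17 bases before the Ugt2b37 start and at the Ugt2b5 start. Ugt2b37 and Ugt2b38 share 82 bases, while the longest run shared with Ugt2b34 was 7 bases.

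The Ugt1a genes share their last exons and differ in the first, so their reads can be split, and all 7 tested ones had values that were not whole. Ugt1a2, the most abundant Ugt by mean TPM (564), measured 1602, 1035 and 1357 CPM in Db and 18.2, 960 and 1286 CPM in Db + Ato10 (-0.82, SE 1.15, edgeR adjusted p = 0.707). The Db mean was 73.0 times the level of Db + Ato10 replicate 1, and the other treated kidneys lay in or near the Db range. With 1 library left out the log2 fold change of Ugt1a2 ran from -1.44 to -0.24. Ugt1a7c measured 563, 578 and 780 CPM in Db and 104, 455 and 701 CPM in Db + Ato10 (-0.61, SE 0.62, edgeR adjusted p = 0.598), again lowest in replicate 1. Ugt1a6b went the other way, with 12.8, 83.8 and 26.7 CPM in Db and 198, 237 and 29.4 CPM in Db + Ato10 (1.91, SE 0.93, edgeR adjusted p = 0.337). It is named after its values were seen, as replicates 1 and 2 were above all Db kidneys and replicate 3 was not. Ugt1a9 and Ugt1a6a, the remaining named Ugt1a genes, had log2 fold changes of 1.77 and -0.34 (edgeR adjusted p-values 0.321 and 0.548). Ugt1a9 measured 1.03, 1.39 and 0.485 CPM in Db and 1.58, 7.16 and 1.18 CPM in Db + Ato10, and without Db + Ato10 replicate 2 its log2 fold change was 0.54. Ugt1a1, the bilirubin-conjugating enzyme, measured 23.5, 36.8 and 40.0 CPM in Db and 8.10, 28.4 and 62.2 CPM in Db + Ato10 (-0.02, SE 0.65, edgeR adjusted p = 0.988), with treated kidneys on both sides of the Db range.

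Also low in Db + Ato10 replicate 1 was Ugt3a2, which transfers sugars other than glucuronic acid. It measured 964, 631 and 1132 CPM in Db and 99.0, 412 and 959 CPM in Db + Ato10 (-0.89, SE 0.74, edgeR adjusted p = 0.524). Replicates 1 and 2 were below every Db kidney and replicate 3 was not.

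**Figure D2:**
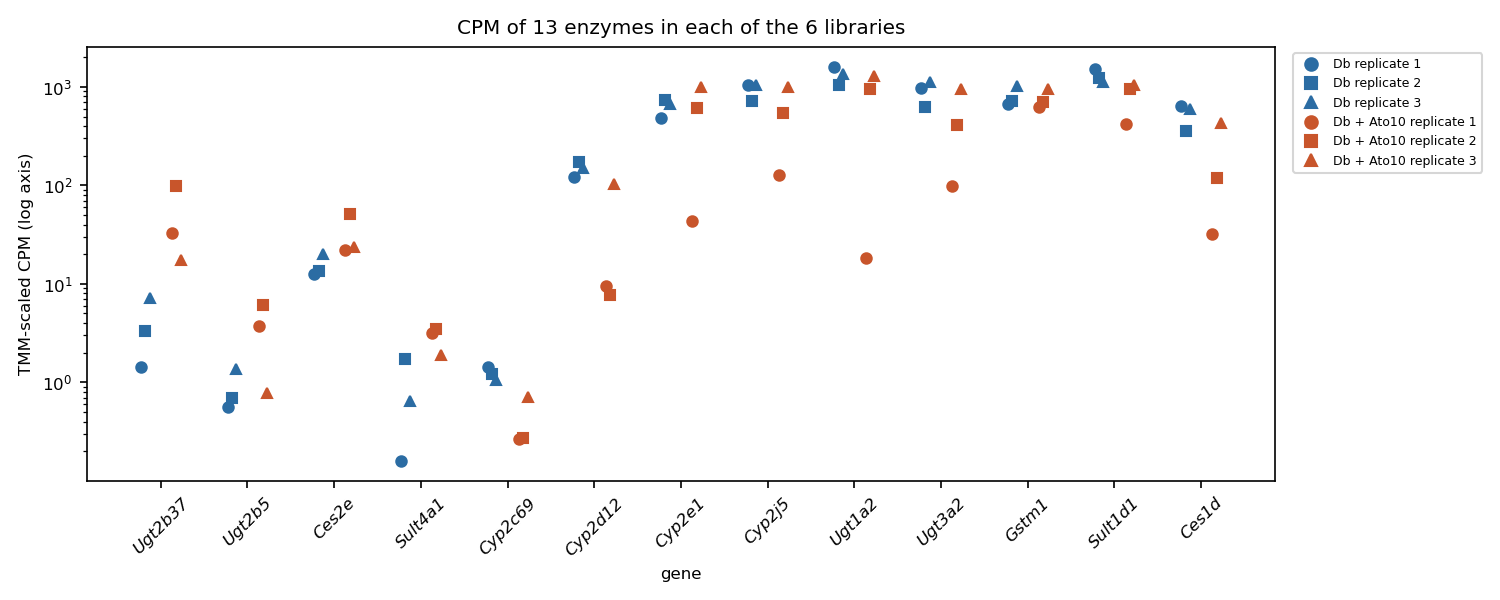
CPM (log axis) of 13 enzymes in each library, Db in blue and Db + Ato10 in orange, with a symbol for each replicate number. Ugt2b37 is between 17.4 and 99.1 CPM in Db + Ato10 and between 1.43 and 7.11 in Db, and Ugt1a2 is at 18.2 CPM in Db + Ato10 replicate 1.

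The glutathione S-transferases conjugate electrophiles with glutathione and were the most abundant class by summed TPM. Of 18 genes 16 were tested, with 5 log2 fold changes above 0 and 11 below, and a median of -0.06. Summed TPM was 4116, 4543 and 5563 in Db and 2802, 4754 and 4953 in Db + Ato10, so replicate 1 was again the lowest. None of the 16 had an unadjusted p under 0.05 in edgeR, beside 16.9% of all tested genes. The groups of all 16 overlapped on CPM, but those of Gstt1 did not on TPM. Over all genes, 12% did not overlap and were higher on CPM, and 11.3% did not overlap and were lower. The median log2 difference from the Db mean was -0.60, 0.10 and 0.15 in the treated kidneys 1 to 3.

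Gstm1 had the highest mean TPM of all 108 enzymes (1117), followed in its class by Gsta2 (905) and Gstp1 (745). Gstm1 measured 673, 715 and 1029 CPM in Db and 626, 697 and 945 CPM in Db + Ato10 (-0.09, SE 0.27, edgeR adjusted p = 0.866). The groups overlapped, and Db + Ato10 replicate 1 lay just below the lowest Db kidney. Gstp1, known for its expression outside the liver, measured 211, 259 and 324 CPM in Db and 266, 274 and 282 CPM in Db + Ato10 (0.05, SE 0.19, edgeR adjusted p = 0.898), all treated kidneys inside the Db range. Gsta2 measured 379, 358 and 521 CPM in Db and 146, 465 and 472 CPM in Db + Ato10 (-0.22, SE 0.45, edgeR adjusted p = 0.807), with replicate 1 low. Its close relative Gsta1 measured 6.91, 7.37 and 23.1 CPM in Db and 32.5, 38.2 and 13.5 CPM in Db + Ato10 (1.17, SE 0.59, edgeR adjusted p = 0.350). Gsta1 was higher in Db + Ato10 replicates 1 and 2 than in any Db kidney. Gsta1 and Gsta2 had values that were not whole, so reads may have been split and the gap between them is uncertain. Gstt1, of the theta group, measured 206, 255 and 227 CPM in Db and 123, 172 and 209 CPM in Db + Ato10 (-0.44, SE 0.22, edgeR adjusted p = 0.348). Gsta4, which conjugates lipid peroxidation products such as hydroxynonenal, measured 101, 83.3 and 88.0 CPM in Db and 88.7, 166 and 80.2 CPM in Db + Ato10 (0.30, SE 0.29, edgeR adjusted p = 0.585). For Gstt1 replicate 3 alone of the treated kidneys lay in the Db range on CPM, and none did on TPM, and Gsta4 was high in Db + Ato10 replicate 2 alone. Gstp3, Gsta3 and Gstm7 completed the named Gst genes, with log2 fold changes of 0.94, -0.55 and -0.63 and edgeR adjusted p-values of 0.607, 0.380 and 0.438. Gstp3 had 1, 41 and 16 counts in Db and 28, 79 and 28 in Db + Ato10, and with 1 library left out its log2 fold change ran from 0.33 to 2.18.

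The sulfotransferases transfer sulfate to phenols, steroids and amines. Of 12 genes 7 were tested, with 2 log2 fold changes above 0 and 5 below, and a median of -0.21. Their summed TPM was 1324, 1140 and 1026 in Db and 416, 846 and 869 in Db + Ato10. Every treated kidney was below every Db kidney, and most of the sum was Sult1d1. The median log2 difference from the Db mean was 0.20, -0.07 and -0.31 in Db + Ato10 replicates 1, 2 and 3, so the kidney with the lowest sum had the highest median.

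Sult1d1 sulfates catecholamines and phenols and had a mean of 769 TPM. It measured 1519, 1239 and 1123 CPM in Db and 423, 946 and 1034 CPM in Db + Ato10 (-0.69, SE 0.37, edgeR adjusted p = 0.372). Its groups did not overlap, with Db + Ato10 replicate 1 the lowest and replicate 3 near the lowest Db kidney. Sult1c2 measured 81.5, 69.3 and 97.3 CPM in Db and 34.7, 63.1 and 64.7 CPM in Db + Ato10 (-0.61, SE 0.27, edgeR adjusted p = 0.315), also without overlap. Sult4a1, known from brain, measured 0.159, 1.73 and 0.646 CPM in Db and 3.16, 3.51 and 1.89 CPM in Db + Ato10 (1.76, SE 0.72, edgeR adjusted p = 0.290). All treated kidneys were above all Db kidneys, but Db replicate 1 had 2 counts, under the floor, and the gap between 1.73 and 1.89 CPM was small. Without Db replicate 1 the log2 fold change of Sult4a1 was 1.28 (edgeR adjusted p = 0.588). Sult1a1, a phenol sulfotransferase, measured 48.0, 72.6 and 32.4 CPM in Db and 55.7, 31.4 and 38.8 CPM in Db + Ato10 (-0.28, SE 0.34, edgeR adjusted p = 0.663), with groups that overlapped. Sult5a1 had a log2 fold change of 0.31 (SE 0.66, edgeR adjusted p = 0.810) at no more than 3.82 CPM.

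Carboxylesterases cleave ester and amide bonds of drugs and lipids. Of 15 genes 8 were tested, with 4 log2 fold changes above 0 and 4 below, and a median of -0.03. Summed TPM was 972, 655 and 1152 in Db and 140, 551 and 864 in Db + Ato10. Replicates 1 and 2 lay below the Db range. The median log2 difference from the Db mean was -1.12, 0.02 and 0.33 in the same order of treated kidneys. The subfamilies differed in their medians, at -0.79 for 4 tested Ces1 and 0.02 for 4 tested Ces2 genes. With 1 library left out the Ces1 median ran from -2.35 (3 tested) to -0.28 and the Ces2 median from -0.25 to 0.33. The difference was not tested.

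Ces1d, the most abundant (mean 330 TPM), measured 646, 358 and 590 CPM in Db and 31.9, 118 and 428 CPM in Db + Ato10 (-1.46, SE 0.85, edgeR adjusted p = 0.398). The third treated kidney was inside the Db range, and the others were below it. With 1 library left out the log2 fold change of Ces1d ran from -2.82 to -0.96. Its edgeR adjusted p ran from 0.0517 to 0.641. Ces1e measured 93.8, 83.5 and 96.8 CPM in Db and 3.16, 32.5 and 86.0 CPM in Db + Ato10 (-1.17, SE 0.93, edgeR adjusted p = 0.507). The Db mean was 28.9 times the level in Db + Ato10 replicate 1, and replicate 3 lay in the narrow Db range on CPM and just below it on TPM (70.4 against 72.7 or more). Ces1f measured 157, 94.5 and 309 CPM in Db and 34.4, 184 and 204 CPM in Db + Ato10 (-0.41, SE 0.70, edgeR adjusted p = 0.760), with wide and overlapping groups. Ces1g was near the count minimum, at 0.461 to 1.89 CPM, with a log2 fold change of 0.31 (edgeR adjusted p = 0.782).

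Ces2e went the other way. It measured 12.7, 13.3 and 19.9 CPM in Db and 22.0, 51.6 and 23.4 CPM in Db + Ato10 (1.08, SE 0.38, edgeR adjusted p = 0.256). Groups did not overlap on CPM but did on TPM (17.0 TPM in Db + Ato10 replicate 1, 17.4 in Db replicate 3), and the second treated kidney was far above the others. Ces2c, the most abundant Ces2, measured 130, 149 and 216 CPM in Db and 69.8, 199 and 236 CPM in Db + Ato10 (0.03, SE 0.45, edgeR adjusted p = 0.979). Its treated kidneys lay below, within and above the Db range.

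**Figure D3:**
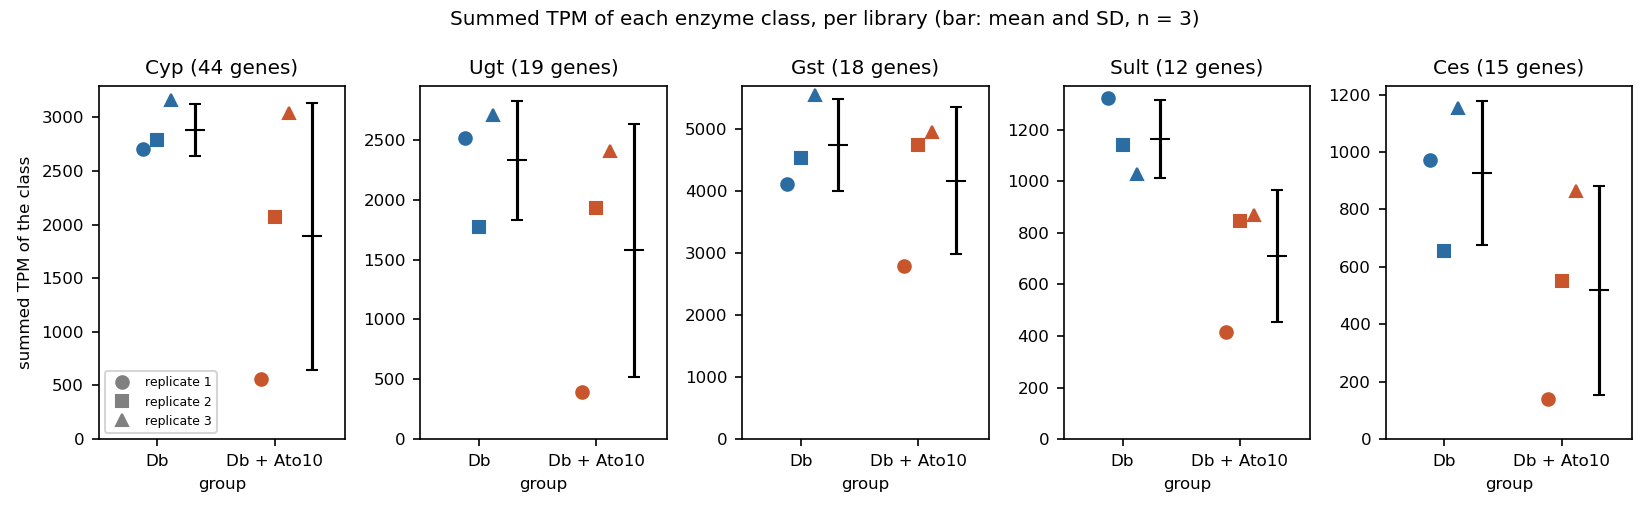
Summed TPM of each enzyme class in each library, with the mean and SD of 3 libraries beside the points. Db + Ato10 replicate 1 is the lowest in all 5 classes (565 for Cyp, 391 for Ugt, 2802 for Gst, 416 for Sult and 140 for Ces), and only in Sult do the groups not overlap.

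The 5 enzymes with an unadjusted p under 0.05 were Ugt2b37, Cyp2c69, Ces2e, Ugt2b5 and Sult4a1. Without Db replicate 1, Ugt2b37 alone had one, beside 1043 of 13588 genes, and its edgeR adjusted p was 0.588. Without Db + Ato10 replicate 3, 21 of 63 enzymes had one, beside 4038 of 13517 genes, and 4 were called: Ugt2b37 and Ugt2b5 higher, Cyp2d12 and Cyp2c69 lower, beside 8.18% of all genes. The call of Cyp2c69 is limited by the count minimum, which it met in the Db libraries alone. DESeq2 without the same library called 19 enzymes of 63 (7 higher, 12 lower), beside 19.3% of all genes. In that library 9 enzymes lay below every Db library, against 43 and 25 in the other treated kidneys, and 15 lay above, against 14 and 16. Of all 13679 genes 3208 lay above, against 5275 and 4799.

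The regulators of these enzymes were examined as a separate list. For this and the following lists, the shares over all tested genes are 11.2% higher and 5.71% lower at an unadjusted p under 0.05 (edgeR). DESeq2 called 6.48% of all genes. Of 16 xenobiotic receptors and regulators 14 were tested, 6 with a positive and 8 with a negative log2 fold change, a median of -0.05, 1 (Esrra) at an unadjusted p under 0.05, and 0 called by edgeR or DESeq2. Hnf4a, which controls many tubular enzymes, measured 873, 710 and 823 CPM in Db and 203, 459 and 806 CPM in Db + Ato10 (-0.71, SE 0.47, edgeR adjusted p = 0.443). Replicates 1 and 2 were below the Db range and replicate 3 inside it. Esrra measured 131, 118 and 144 CPM in Db and 86.2, 82.9 and 112 CPM in Db + Ato10 (-0.49, SE 0.17, edgeR adjusted p = 0.250), without overlap. Ahr and Nfe2l2 had log2 fold changes of 0.44 (SE 0.35, edgeR adjusted p = 0.512) and 0.11 (SE 0.16, edgeR adjusted p = 0.724).

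Of 6 electron donors of P450, all tested, 1 was positive and 5 negative, with a median of -0.28, 1 at an unadjusted p under 0.05, and 0 called by edgeR or DESeq2. Cyb5r3, cytochrome b5 reductase, measured 123, 152 and 183 CPM in Db and 224, 265 and 211 CPM in Db + Ato10 (0.61, SE 0.19, edgeR adjusted p = 0.239), with no overlap. Fdxr (-0.30) and Fdx1 (-0.41), which pass electrons to mitochondrial P450, had edgeR adjusted p-values of 0.415 and 0.455.

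The other P450 families of the list (22 genes in the table, 19 tested) had 8 positive and 11 negative log2 fold changes, a median of -0.29, 2 at an unadjusted p under 0.05, both higher, and 0 called by edgeR or DESeq2. Cyp27b1, the enzyme that makes active vitamin D, measured 28.0, 35.4 and 4.36 CPM in Db and 75.4, 213 and 34.5 CPM in Db + Ato10 (2.25, SE 0.91, edgeR adjusted p = 0.286), and Cyp4v3 had 0.78 (edgeR adjusted p = 0.268). Cyp39a1 and Cyp46a1 had -0.39 and -0.55 (edgeR adjusted p-values 0.424 and 0.433).

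Other oxidation, reduction and hydrolysis enzymes (36 genes in the table, 31 tested) had 14 positive and 17 negative log2 fold changes and a median of -0.22. At an unadjusted p under 0.05, 2 were higher and 2 lower, beside 11.2% and 5.71% of all tested genes. edgeR called 0 and DESeq2 called 2, both higher, beside 6.48% of all genes. Akr1b8, an aldo-keto reductase, measured 2.46, 7.37 and 2.50 CPM in Db and 47.1, 31.3 and 11.3 CPM in Db + Ato10 (2.87, SE 0.67, edgeR adjusted p = 0.239, DESeq2 adjusted p = 0.000963). Xdh, xanthine dehydrogenase, measured 37.9, 40.3 and 45.7 CPM in Db and 94.6, 82.6 and 55.4 CPM in Db + Ato10 (0.91, SE 0.22, edgeR adjusted p = 0.239, DESeq2 adjusted p = 0.0151). Neither gene overlapped between groups. Nqo2 (-0.52) and Cbr1 (-0.36) had edgeR adjusted p-values of 0.239 and 0.284.

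Other conjugation enzymes (22 genes, 20 tested) had 6 positive and 14 negative log2 fold changes and a median of -0.47. At an unadjusted p under 0.05, 2 were higher and 2 lower, beside 11.2% and 5.71% of all tested genes. edgeR called 0 and DESeq2 called 2, beside 6.48% of all genes. Gsto1, of the omega group of glutathione S-transferases, measured 113, 140 and 106 CPM in Db and 298, 312 and 158 CPM in Db + Ato10 (1.10, SE 0.29, edgeR adjusted p = 0.239, DESeq2 adjusted p = 0.0155). Nnmt, nicotinamide N-methyltransferase, had a log2 fold change of 2.00 (SE 0.56, edgeR adjusted p = 0.239, DESeq2 adjusted p = 0.0243). Both were called by DESeq2 alone. Hnmt (-0.67) and Gsto2 (-1.20) had edgeR adjusted p-values of 0.239 and 0.281.

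Marker lists of other cells give the setting in which the enzymes were measured. All 10 injured tubule markers had positive log2 fold changes (median 2.76), with 10 at an unadjusted p under 0.05 in edgeR, which called 0, and 10 called by DESeq2. Their summed TPM was 4881, 6025 and 3379 in Db and 23556, 43334 and 14066 in Db + Ato10, with Spp1 the most abundant. Thick ascending limb markers (6 of 6 negative, median -1.10, Umod the most abundant) summed to 4763, 5398 and 4981 TPM in Db and 2687, 1407 and 3583 TPM in Db + Ato10, and DESeq2 called 4. Distal convoluted tubule markers were negative in 4 of 4 (median -1.12, 2 called by DESeq2, Slc12a3 the most abundant) and summed to 1324, 1701 and 1083 TPM in Db and 611, 305 and 703 TPM in Db + Ato10. Collecting duct markers were negative in 8 of 8 (median -0.82, 2 called by DESeq2, Aqp2 the most abundant) and summed to 911, 660 and 1194 TPM in Db and 661, 430 and 709 TPM in Db + Ato10. Proximal tubule markers, beside which the enzymes are expressed, were negative in 15 of 16 tested (median -0.73), with 0 called by either tool. Their median log2 difference from the Db mean was -2.72 in Db + Ato10 replicate 1, -0.67 in replicate 2 and -0.03 in replicate 3. Hepatocyte markers (6 genes in the table, Ttr the most abundant) summed to 205, 40.7 and 37.4 TPM in Db and 26.3, 273 and 78.8 TPM in Db + Ato10, with Ttr at 163 TPM in Db replicate 1 and 206 TPM in Db + Ato10 replicate 2. Whether such levels bear on any enzyme was not tested.

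The sequence before the genes was searched for 3 short motifs on both strands, in the 300 bases from 250 before to 50 after each RefSeq start. GCGTG, the core of the xenobiotic response element, was in 32.4% of 32851 promoters and in 23 of 102 promoters of 92 enzymes (22.5%). TGACNNNGC, an antioxidant response element, was in 12.4% of all and 5 of the enzymes' promoters (4.90%). GTTAAT, part of the site of hepatocyte nuclear factor 1, was in 7.10% of all promoters and in 16 of the 102 (15.7%). None of the 3 motifs was in the 250 bases of Ugt2b37, Ugt2b5 or Ugt2b38. A match is a description of the letters and not of a binding site.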

How the data were processed

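RNA of 6 mouse kidneys was sequenced, 1 library each, and groups follow the titles and the treatment label, although the protocol field describes atorvastatin for all 6. The authors deposited expected counts per gene, which are not normalized, and 91.3% of values were whole. The deposited TPM were scaled by the authors to transcript length and a common total. The deposited FPKM were scaled by the authors to transcript length and library size. The labels name HISAT and Bowtie2 2.2.5 and build mm9, without their roles, and the counter is not given in the sources used here. Values that are not whole may come from reads split between genes, and 30 of the 108 enzymes had such values (26 of 65 tested).

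Expected counts were rounded. A gene needed 10 counts or more in 3 or more libraries, and all genes that met this were fitted with edgeR 4.0.16 (TMM, quasi-likelihood F test, installed defaults) in R 4.3.3. Calls used a Benjamini-Hochberg adjusted p under 0.05 and a fold change over 1.5. SE is the log2 fold change divided by the root of the F statistic. The log2 CPM used a prior count of 2. With 3 libraries a group, an exact permutation test cannot give p under 0.1. No library pair of 15 had the same values. FPKM entered no test.

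Alternatives were DESeq2 1.42.0, limma-voom (limma 3.58.1), edgeR with bias-adjusted deviances, upper-quartile scaling, other filters and thresholds, limma on log2(TPM + 1) and log2(TPM + 0.1), the replicate block and each library left out. The fit was tested on simulated data, whose outcome is not given and bears no statement here. Genes were named by role, by mean TPM (3 per class) and by unadjusted p (3 higher and 3 lower per class). Members and lists were chosen with earlier results of these data known. Promoters came from RefSeq (GRCm38.p6) by NCBI Gene number, with 92 of 108 enzymes matched. Figures used matplotlib 3.10.9 in Python 3.11.15.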

Additional observations from a re-analysis of the deposited data

How the results depend on the processing

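With 6 libraries, DESeq2 called 884 genes and 1 enzyme, and limma on log2(TPM + 0.1) called 1 gene and 0 enzymes; the cause was not tested. DESeq2 called 195 genes and 1 enzyme without Db replicate 1, and 2614 genes and 19 enzymes without Db + Ato10 replicate 3. Enzymes with an unadjusted p under 0.05 numbered 5 of 65 in the edgeR fit (16.9% of all genes), 9 of 65 with DESeq2 (19.2%), 3 of 55 with at least 10 counts in every library (16.1%, fewer genes tested), 8 of 65 with limma on log2(TPM + 1) or log2(TPM + 0.1) (15.9% and 16.3%), and 2 and 27 of 63 in the same pair of reduced DESeq2 fits (1634 of 13576 and 4173 of 13515 genes). With edgeR and 1 library left out in turn, genes called ranged from 0 to 1106, enzymes called from 0 to 4, and enzymes with an unadjusted p under 0.05 from 1 to 21 (7.68% and 29.9% of all genes in the same fits). The highest values were all without Db + Ato10 replicate 3, and the value of 1 was without Db replicate 1. Enzymes whose groups did not overlap, an alternative chosen after seeing the data, ranged from 12 to 33 of 65 with 1 library left out (29.3% and 50.6% of all genes in the same libraries), where a smaller group overlaps less often by construction, and on deposited TPM were 3 higher and 8 lower in place of 5 and 6 on CPM, 11 in total in both units. The median log2 fold change of all enzymes ranged from -0.38 without Db + Ato10 replicate 3 to 0.04 without Db + Ato10 replicate 1. Upper-quartile scaling left all class medians negative.

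The replicate block, with the shared replicate numbers as a factor, called 0 genes and 0 enzymes, with 9 of 65 enzymes and 13.6% of all genes at an unadjusted p under 0.05. Deviations of same-numbered libraries correlated at -0.15, 0.06 and 0.21 across genes. Libraries with different numbers were not compared in this way, so whether same-numbered libraries share more than a number was not tested.

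Of 40 named and tested enzymes, 30 kept their sign under every alternative that tested them and 10 changed it under at least 1, all with fitted log2 fold changes between -0.41 and 0.31. Of the 15 alternatives, 11 tested Ces1g, Cyp2c68 and Cyp2c69, and 14 tested Cyp1a1, Cyp3a13, Gstp3, Sult4a1, Sult5a1, Ugt1a9 and Ugt2b5. Ces2c was -0.10 with limma-voom, -0.20 with limma on log2(TPM + 1) and on log2(TPM + 0.1), and -0.11 with the replicate block. Gstp1 was -0.021 with limma on log2(TPM + 1) and log2(TPM + 0.1). With 1 library left out, log2 fold changes ran for Ces1f from -0.77 to 0.16, Ces2c from -0.29 to 0.41, Cyp2e1 from -0.93 to 0.37, Gsta2 from -0.45 to 0.17, Gsta4 from -0.085 to 0.49, Gstm1 from -0.28 to 0.12, Gstp1 from -0.078 to 0.22, Sult1a1 from -0.53 to 0.065, Sult5a1 from -0.38 to 0.76 and Ugt1a1 from -0.87 to 0.45. The causes of these sign changes were not tested. Some enzymes that kept their sign also moved far with 1 library left out. Ranges were -1.49 to -0.28 for Cyp2j5, -1.89 to -0.76 for Cyp2d26 and -2.35 to -0.62 for Ces1e. They were 0.53 to 2.75 for Cyp2j13, -1.83 to -0.40 for Ugt3a2 and -1.19 to -0.14 for Ugt1a7c. Counts of about 10, as for Cyp2c69, Cyp2c68, Ces1g and Cyp3a13, limit what depth can show.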

Other observations

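The transporters and cofactor genes that work with these enzymes were counted the same way. Of 28 drug transporters of the proximal tubule, 25 were tested, with 2 positive and 23 negative log2 fold changes and a median of -0.38. At an unadjusted p under 0.05, 1 was higher and 2 were lower, beside 11.2% and 5.71% of all tested genes. edgeR and DESeq2 called 0, where DESeq2 called 6.48% of all genes. Summed TPM was 3886, 3708 and 4497 in Db and 1199, 3299 and 4098 in Db + Ato10, so replicate 1 was again the lowest and replicate 3 was inside the Db range. Abcc4, an exporter of organic anions, measured 144, 184 and 190 CPM in Db and 97.4, 109 and 135 CPM in Db + Ato10 (-0.60, SE 0.19, edgeR adjusted p = 0.239). Abcb1b, a P-glycoprotein gene, measured 30.8, 27.7 and 35.3 CPM in Db and 9.75, 19.9 and 19.5 CPM in Db + Ato10 (-0.93, SE 0.29, edgeR adjusted p = 0.239). Neither overlapped between groups. Slco2a1, a prostaglandin carrier, measured 39.8, 42.6 and 51.3 CPM in Db and 68.5, 73.9 and 54.6 CPM in Db + Ato10 (0.56, SE 0.17, edgeR adjusted p = 0.239), and Abcc1 had 0.31 (edgeR adjusted p = 0.674).

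Of 14 genes for cofactor supply, all tested, 4 were positive and 10 negative, with a median of -0.25. At an unadjusted p under 0.05, 2 were higher and 0 lower, beside 11.2% and 5.71% of all tested genes. edgeR called 0 and DESeq2 called 1, beside 6.48% of all genes. Gsr, which regenerates glutathione, measured 130, 148 and 155 CPM in Db and 281, 244 and 212 CPM in Db + Ato10 (0.76, SE 0.17, edgeR adjusted p = 0.239, DESeq2 adjusted p = 0.00265). G6pdx, which supplies NADPH, measured 46.2, 53.2 and 51.4 CPM in Db and 130, 81.0 and 60.0 CPM in Db + Ato10 (0.85, SE 0.28, edgeR adjusted p = 0.243). Both were higher in every treated kidney than in every Db kidney. Papss1 (-0.57), which makes the sulfate donor, and Dpep1 (-0.75) had edgeR adjusted p-values of 0.317 and 0.408.

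Sex-biased kidney genes did not all side with the Y-linked counts of Db replicate 1. Of the 6 listed genes in the table, the male-biased Cyp4b1, Slco1a1 and Slc7a13 are not shown here. Kap, abundant in male mouse kidney, measured 2364 CPM there and between 602 and 873 CPM in the other libraries, and Slc7a12, higher in females, measured 105, 17.5 and 118 CPM in Db. Cyp2j13, higher in males, was lowest in Db replicate 1 at 6.68 CPM, close to Db replicate 2 at 8.24 CPM.

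The remaining marker lists were counted in the same libraries. Fibroblast and myofibroblast markers (7 of 7 positive, 4 called by DESeq2, Dcn the most abundant) summed to 66.3, 78.8 and 71.5 TPM in Db and 667, 248 and 104 TPM in Db + Ato10. Urothelium and squamous epithelium markers (5 of 10 tested, 4 positive, 3 called by DESeq2, Sprr1a the most abundant) summed to 11.3, 10.2 and 8.75 TPM in Db and 139, 111 and 52.5 TPM in Db + Ato10. Both sums were higher in every treated kidney. Endothelium markers (2 of 5 positive, Emcn the most abundant) summed to 190, 162 and 183 TPM in Db and 224, 92.9 and 167 TPM in Db + Ato10. Podocyte markers (2 of 5 positive, Podxl the most abundant) summed to 226, 145 and 141 TPM in Db and 208, 76.7 and 137 TPM in Db + Ato10, and DESeq2 called 0 of either list. Adipocyte markers reached at most 1.62 TPM in all and adrenal cortex markers at most 6.60 TPM. The part of these cells in the enzyme levels was not tested.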
